A study of Mus musculus with 2 samples.

Results

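The genes described here are the mouse adhesion and numbered G protein-coupled receptors. Members were chosen by name alone: a gene had to carry a symbol beginning with Adgr, a letter and a digit, or consisting of Gpr and a number, and had to have at least 1 transcript annotated as protein_coding. The rule found 96 members among 55536 annotated genes, of which 21901 have a protein_coding transcript. There were 27 adhesion members and 69 numbered members. The samples were 2 hippocampal tissue samples, given in the labels as layer of hippocampus with the layer not named, from male adult mice of strain B6CASTF1/J, a cross of C57BL/6 with the CAST strain, aged 8 to 10 months. Library 1 came from animal 2 and library 2 from animal 4, each from 300 ng of total RNA with ERCC spike-in RNA added. Both libraries belong to 1 group for which the labels name no treatment, so there is no comparison of conditions. Donor entries in the labels match although the animal numbers differ, so the spread over the 2 libraries was taken as one between animals and may be partly technical.

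G protein-coupled receptors span the membrane with 7 helices and pass signals to heterotrimeric G proteins and arrestins. Adhesion receptors add a long extracellular part with cell-adhesion modules, and most cut themselves at a proteolysis site just before the first helix, which leaves the extracellular and the membrane part bound to each other. In brain the latrophilins and the brain angiogenesis inhibitors of this family are known as synaptic adhesion molecules. The numbered receptors were named before a ligand was known, and many are still orphans.

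The deposited gene counts summed to 23458117 in library 1 and 29584307 in library 2, and the members took 88821 and 109506 of these. Markers of glutamatergic neurons (Slc17a7 at 612 and 631 TPM, the length-scaled share of transcripts, in libraries 1 and 2; Prox1 at 37.3 and 28.8) were present in both. Choroid plexus markers set the libraries apart: 8 of 9 passed the edgeR test with adjusted p under 0.05, all higher in library 2, and their summed level was 17.9 TPM in library 1 and 1792 TPM in library 2. Transthyretin (Ttr), the defining marker, stood at 8.68 and 1703 TPM. The part of this difference in the members' values was not tested.

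Of the 96 members, 52 were detected, meaning a level of 1 TPM or more in both libraries. This is 54.2% of the members, beside 59.4% of all genes with a protein_coding transcript. Detection held for 15 of 27 adhesion members and 37 of 69 numbered members. A further 4 members reached 1 TPM in library 2 alone and 40 in neither library. Levels were concentrated in few genes: the 10 highest members held 65.8% of the members' summed TPM in library 1 and 65.2% in library 2. Adhesion members held 58.9% and 56.7% of it (mean 57.8% ± 1.57, SD, n = 2). Because the tissue was profiled in bulk, fewer cells of a type and less RNA per cell cannot be told apart in any level given here.

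**Figure D1:**
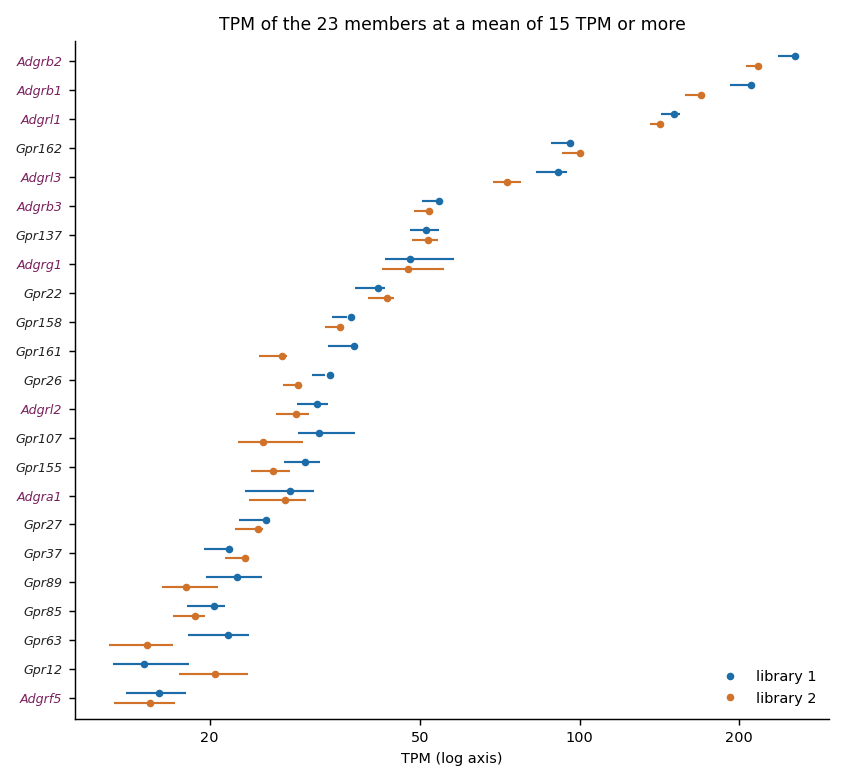
TPM of the members with a mean of 15 TPM or more on a log axis, with the dots giving library 1 and library 2 and the lines the deposited credible bounds within each library; adhesion members are named in purple. Adgrb2 stands highest at 255 and 218 TPM, and over all 52 detected members 5 of 51 neighbouring pairs have bounds apart in both libraries.

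The 3 highest members were all adhesion receptors and held 39.1% and 37.0% of the members' TPM. Adgrb2, or brain angiogenesis inhibitor 2 (chr4:129984870-130022633, plus strand, mm10), was measured at 255 TPM in library 1 and 218 in library 2 (236 ± 26.6, SD, n = 2). Adgrb1, a receptor of phosphatidylserine that also links to the engulfment adaptor Elmo1 and is found at excitatory synapses, followed at 211 and 169 TPM (190.0 ± 29.4). Adgrl1, latrophilin 1, a receptor for teneurins and for the spider toxin alpha-latrotoxin, stood at 151 and 142 TPM (146 ± 6.06). In both libraries these 3 kept this order with credible bounds apart at each step, and each lay above every other member.

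All 3 brain angiogenesis inhibitors and all 4 adhesion L members (the 3 latrophilins and Adgrl4) were detected. Within each subfamily every step of the order was resolved by the bounds. Adgrb3, a receptor of C1q-like proteins, was at 54.3 and 51.8 TPM, below Adgrb1. Adgrl3, which binds FLRT and teneurin proteins, stood at 90.8 and 72.8 TPM, Adgrl2 at 31.97 and 29.2, and the endothelial Adgrl4 at 10.9 and 7.83. The proteins are alike to a varying degree. Translated coding sequence of the longest complete transcripts gave 48.4% to 52.8% identity of aligned residues between the 3 Adgrb members. Identity was 57.7% to 65.7% between the latrophilins Adgrl1, Adgrl2 and Adgrl3, and 34.1% to 35.4% between Adgrl4 and these latrophilins. Adgrl1 and Adgrl2 were the most alike latrophilins, at 948 identical of 1444 aligned residues, and their levels were 146 and 30.6 TPM.

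The other adhesion subfamilies held fewer detected members. In the A subfamily Adgra1 was at 28.4 and 27.7 TPM, Adgra3 at 10.7 and 12.8 (7.77 and 7.53 by a second deposited quantification, summed per gene), and Adgra2, a Wnt7 co-receptor of brain endothelium, at 6.90 and 4.24. Only Adgrg1 of 7 G-subfamily members was detected, at 47.9 and 47.4 TPM (47.7 ± 0.318). Adgrg1, or Gpr56, binds collagen III and transglutaminase 2 and is known from cortical development, oligodendrocyte precursors and microglia. Only Adgrf5 of 5 F-subfamily members was detected, at 16.1 and 15.4 TPM, the others lying between 0 and 0.730 TPM on average. Adgre5 (CD97) was at 6.59 and 4.77 TPM, Adgre1 (F4/80, a macrophage antigen) at 1.91 and 1.95, and Adgre4 had 0 counts. Adgrv1, the very large receptor of the hair-cell stereocilia, reached 1.43 and 1.61 TPM, while the second quantification gave 2.99 and 2.12. Adgrd1 stayed below detection at 0.260 and 0.45 TPM.

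**Figure D2:**
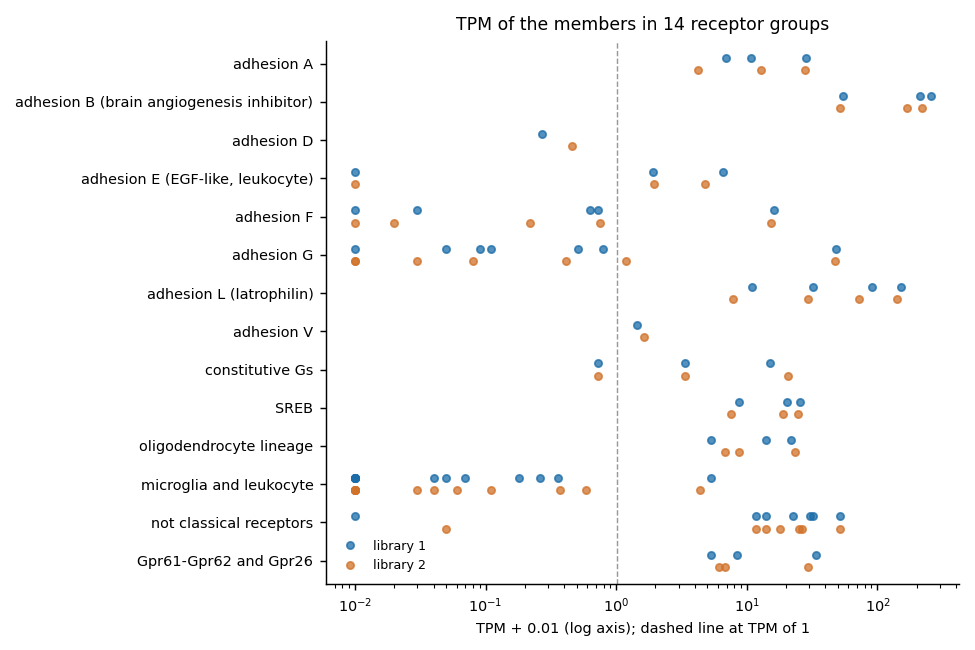
TPM plus 0.01 of every member of 14 receptor groups on a log axis, with blue dots for library 1 and orange dots for library 2, and a dashed line at 1 TPM. All members of the brain angiogenesis inhibitor and adhesion L groups lie right of the line. In the microglia and leukocyte group 12 of 13 lie left of it.

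The proteolysis site was read from coding sequence to see whether the abundant adhesion members carry it. At the site a histidine or another basic residue and a leucine precede the serine or threonine at which the chain is cut. Below are 14 codons of the longest complete coding transcript of Adgrb2, Adgrb3, 3 latrophilins and Adgrg1, with the fifth to the seventh codon in capitals; the first base belongs to the first of the pair of conserved cysteines. All coordinates are mm10, and the stretch of Adgrg1 is read across an intron.
Adgrb2 (chr4:130011895-130011936, plus strand): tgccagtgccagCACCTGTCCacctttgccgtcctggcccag
Adgrb3 (chr1:25228436-25228477, minus strand): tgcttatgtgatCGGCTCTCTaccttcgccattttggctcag
Adgrl1 (chr8:83933994-83934035, plus strand): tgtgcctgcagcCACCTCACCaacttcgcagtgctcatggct
Adgrl2 (chr3:148837579-148837620, minus strand): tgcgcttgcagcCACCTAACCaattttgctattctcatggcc
Adgrl3 (chr5:81694571-81694612, plus strand): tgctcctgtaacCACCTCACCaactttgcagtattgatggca
Adgrg1 (chr8:95007630-95008373, plus strand): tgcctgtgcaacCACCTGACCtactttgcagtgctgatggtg
The capital codons read histidine, leucine and serine in Adgrb2, arginine, leucine and serine in Adgrb3, and histidine, leucine and threonine in the latrophilins and Adgrg1.

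A pattern of a cysteine, any residue, a cysteine, any residue, histidine, leucine, and serine or threonine matched the longest protein of 16 of 27 adhesion members. A wider pattern, which allowed any residue at the histidine, methionine, phenylalanine or threonine at the leucine, and required an aromatic and an aliphatic residue after the cut residue, was written after the members' sequences had been read and matched 5 more, among them Adgrb3 with arginine, Adgrg6 with phenylalanine at the leucine, Adgrg7 with threonine there and Adgrv1 with methionine. It matched none of Adgra1, Adgra2, Adgra3, Adgre1, Adgrf2 and Adgrf4, which says only that these letters are not in those proteins. Of the 6 proteins without a match, 4 were detected members.

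Transcripts holding the site differed widely in their share of each gene's TPM. In Adgrl1 they held 92.5% of the gene's TPM in library 1 and 95.1% in library 2, and in Adgrb2 77.8% and 87.3%. In Adgrb1 the only complete transcript with the site, Adgrb1-201, held 9.39% and 14.5%, and the second quantification gave 16.2% and 14.7%. The leading coding form in both libraries was Adgrb1-203, at 26.6% and 28.7%, which codes for 642 residues identical to the last 642 of the 1582 residues of the long protein. The site is not in this form. The second quantification placed Adgrb1-203 at 17.5% and 14.2% and led with Adgrb1-206, a transcript annotated as a nonsense-mediated decay target, at 18.6% and 18.3%. Adgrl3 likewise had a minority on transcripts with the site, 31.8% and 42.4%, with 63.8% and 56.3% on transcripts that are not protein_coding.

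**Figure D3:**
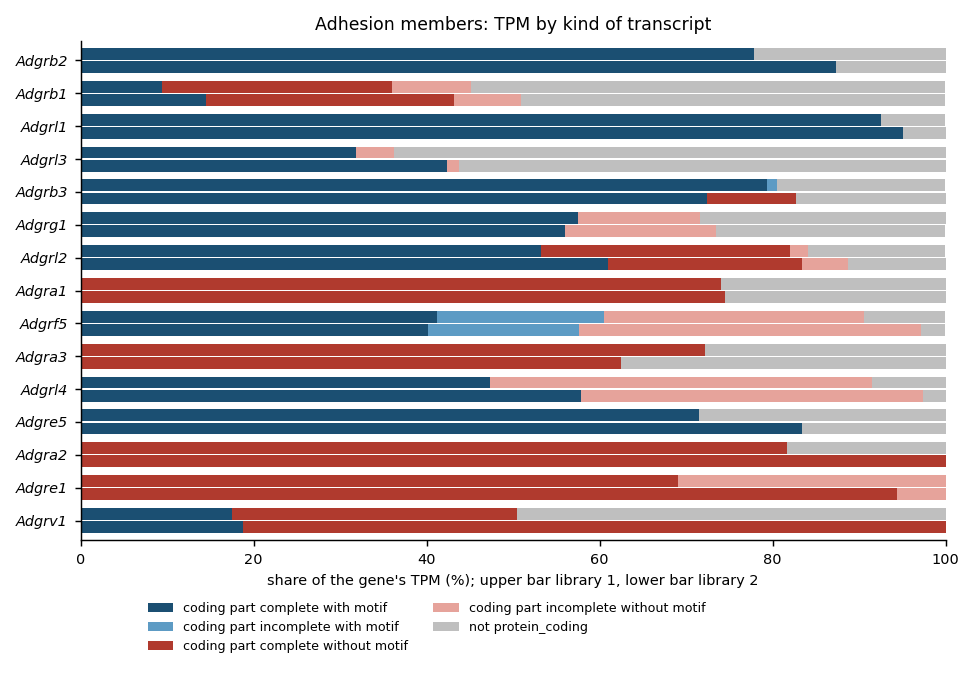
Share of each detected adhesion gene's TPM by kind of transcript, with the upper bar of each pair for library 1 and the lower for library 2; "complete" means that the coding part has an annotated start and stop. The bars of Adgrl1 (92.5% and 95.1%) are mostly dark blue, those of Adgrb1 hold 9.39% and 14.5% of that kind.

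Some of the adhesion receptors also varied in whole coding exons. Among the 52 detected members, 33 annotated coding exons in 13 genes were skipped by another coding transcript, and 26 of the 33 had a whole number of codons. No such counts over all detected coding genes are given. In both libraries and both quantifications 17 of them, in 7 genes, had an inclusion between 10% and 90%. Inclusion is the share of the coding TPM that could show the exon, with at least 1 TPM on those transcripts each time. The 17 include 2 of Adgrl3 that share a start and differ in their end (chr5:81792361-81792378 and chr5:81792361-81792412). Those 7 genes were Adgrb2, Adgre5, Adgrf5 and all 4 adhesion L members, and none was a numbered receptor. Some of the transcripts compared had an incomplete coding part. In Adgrl4 the only transcript without its exon was incomplete, and in Adgrf5 the only transcript with its exon was. An exon of Gpr137 came close to the limits, at 76.6% and 72.2% in libraries 1 and 2, and 90.6% and 85.2% by the second quantification. Of the 69 numbered members, 42 have a single coding exon in their longest complete transcript. The median number of coding exons was 20 for adhesion members and 1 for numbered members. Whether exon skipping is particular to the adhesion members was not tested.

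In Adgrl1, an exon of 15 bases (chr8:83926262-83926276, plus strand, mm10) was included in 16.9% of that TPM in library 1 and 18.7% in library 2, and 24.6% and 28.3% by the second quantification. It lies at the known splice site between the lectin-like and olfactomedin-like domains, where latrophilins bind teneurins. It is shown with 15 coding bases on each side, the exon in capitals.
Adgrl1 with the exon: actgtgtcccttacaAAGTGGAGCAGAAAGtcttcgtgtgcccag
Adgrl1 without it: actgtgtcccttacatcttcgtgtgcccag
The transcript without the exon, Adgrl1-207, was the leading form at 76.9% and 77.3% of the gene's TPM.

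Adgrb2 had 2 exons of 165 bases each that its transcripts used singly or together. The upstream exon (chr4:130005390-130005554, plus strand, mm10) was included in 63.5% and 58.4% of the TPM, and the downstream exon (chr4:130006752-130006916) in 58.3% and 60.4%. The second quantification gave 70.0% and 64.7% for the upstream exon and 60.3% and 59.7% for the downstream exon. Adgrb2-207, with the upstream exon alone, held 32.4% and 34.6% of the gene's TPM, Adgrb2-208, with the downstream one alone, 28.4% and 36.3%, and Adgrb2-204, with both, 11.9% and 12.8%. The gene's extracellular part is built of thrombospondin repeats, and both exons are shown in capitals between 15 shared coding bases.
Adgrb2 upstream exon: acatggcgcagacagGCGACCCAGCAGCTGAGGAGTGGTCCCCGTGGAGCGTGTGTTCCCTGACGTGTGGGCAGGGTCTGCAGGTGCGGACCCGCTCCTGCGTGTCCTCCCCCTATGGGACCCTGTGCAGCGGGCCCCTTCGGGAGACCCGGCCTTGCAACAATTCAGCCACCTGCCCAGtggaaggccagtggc
Adgrb2 downstream exon: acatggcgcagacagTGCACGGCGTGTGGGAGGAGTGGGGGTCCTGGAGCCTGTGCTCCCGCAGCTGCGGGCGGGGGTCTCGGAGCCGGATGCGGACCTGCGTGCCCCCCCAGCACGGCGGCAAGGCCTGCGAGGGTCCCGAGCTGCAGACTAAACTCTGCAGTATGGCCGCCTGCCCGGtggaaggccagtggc
Another Adgrb2 exon, of 99 bases (chr4:130014935-130015033), was included in 52.8% and 57.3% of the TPM, and in 45.6% and 48.5% by the second quantification.

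Over all detected members, 47 of 52 had more than 50% of their TPM on protein_coding transcripts in both libraries. That count includes 11 members with a single transcript, which the name rule requires to be protein_coding, so their outcome was fixed in advance. No such count over all genes is given. For the 41 detected members with more than 1 transcript, the median coding share was 85.3% and 92.7% in libraries 1 and 2, beside 83.9% and 88.2% over the 11791 detected coding genes with more than 1 transcript. The leading transcript was the same in both libraries for 33 of the 41 (80.5%), beside 84.6% of all such genes, and 22 of the 41 had the same leader in both libraries and by both quantifications. The 5 detected members with the lowest coding share were Adgrl3, Gpr45, Gpr107, Adgrb1 and Gpr12. Gpr12 led with a retained-intron transcript at 50.9% and 39.7%. The second quantification put that transcript at 45.6% and 30.1%, where a coding transcript led in library 2. Gpr107, a Golgi protein, had 43.0% and 45.4% on its leading coding form, with the rest mostly on retained-intron transcripts.

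Among the numbered members, Gpr162 (chr6:124858444-124863983, minus strand, mm10) was the highest at 96.0 and 100.2 TPM (98.1 ± 3.0, SD, n = 2). Gpr162 has no established ligand. Its retained-intron form held 24.1% of its TPM in library 1 and 10.0% in library 2. Gpr22, which overlaps Cog5 on the opposite strand, was at 41.6 and 43.3 TPM, Gpr158 at 36.9 and 35.2, Gpr161, a ciliary receptor that restrains hedgehog signalling, at 37.5 and 27.4, and Gpr26 at 33.7 and 29.3. Gpr63 was at 21.6 and 15.2 TPM and Gpr19 at 13.6 and 14.4, both orphans. The 19 numbered members at 10 TPM or more included 6 that are not classical surface receptors: Gpr137 (51.3 and 51.8), the Golgi protein Gpr107 (32.2 and 25.3), the lysosomal Gpr155 (30.3 and 26.4), the Golgi anion channel Gpr89 (22.5 and 18.0), Gpr108 (14.04 and 13.9) and Gpr180 (11.7 and 11.7).

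Closely related receptors were at unequal levels. Of the constitutively Gs-active trio, which raise cyclic AMP without a known agonist, Gpr12 was at 15.03 and 20.5 TPM, Gpr3 at 3.34 and 3.37, and Gpr6 at 0.720 in both libraries, while their proteins share 58.1% to 58.9% of aligned residues. The SREB trio, named for super-conserved receptors expressed in brain, stood at 25.6 and 24.7 TPM for Gpr27, 20.4 and 18.8 for Gpr85 and 8.77 and 7.55 for Gpr173. Here the pair with the closest proteins, Gpr85 and Gpr173 at 63.1% identity, was 19.6 against 8.16 TPM. Within both trios every neighbouring pair had bounds apart in both libraries. The class C orphan Gpr158, which binds Rgs7 and heparan sulphate glypicans, was at 36.1 ± 1.22 TPM (SD, n = 2), with Gpr179 at 0.260 and 0.180. Among proton-sensing receptors, Gpr4 was at 0.690 and 1.10 TPM, and Gpr65 and Gpr132 were below 0.1 TPM.

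The oligodendrocyte-lineage group was detected in full: Gpr37, a receptor of mature oligodendrocytes, at 21.8 and 23.3 TPM, Gpr17, which marks differentiating precursors, at 14.03 and 8.63, and Gpr62 at 5.29 and 6.75. The relative of Gpr62, Gpr61, was at 8.47 and 6.16 TPM, with 35.4% identity between their proteins. Microglial and leukocyte members were mostly at or near 0. Of 13, Gpr34 was detected at 5.31 and 4.36 TPM, and 9 had 3 or fewer counts in both libraries, while the 6 microglial marker genes summed to 136 and 151 TPM. Among members known from striatum and habenula, Gpr101 was detected at 5.94 and 5.31 TPM, and Gpr6, Gpr139, Gpr149 and Gpr151 were under 1 TPM on average.

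At the other end, 11 members had 0 counts in both libraries, among them Adgre4, Adgrf3, Adgrg4, Gpr15, Gpr18, Gpr33, Gpr119, Gpr141, Gpr142 and Gpr174. A count of 0 allows up to 3 counts per library, which for these genes is 0.0336 to 0.211 TPM, counting error only. Another 12 had 3 or fewer counts in both libraries. Gpr15, Gpr18, Gpr174 and Adgre4 are known from leukocytes, and Gpr119 from gut and pancreatic islets. None was tested, since the filter leaves out genes below a CPM (count scaled to library size) of 1 in both libraries.

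The 2 libraries were compared member by member. Of 64 members tested by edgeR, 0 were called different at an adjusted p of 0.05, beside 0.806% of all 16123 tested genes, and 1 had an unadjusted p under 0.05. With a common dispersion the calls were also 0 and the unadjusted count 3. A p that misses the threshold does not show that the libraries were alike. The spread used by the test was estimated from these same 2 libraries, over genes of like level. Each p therefore sets a member's difference against that of such genes, and not against a separate measure of spread between animals. The median log2 ratio of library 2 over library 1 was 0.06 for the members and 0.00 for all genes. Among the tested members, 87.5% lay within 1.5-fold, beside 85.9% of all genes. 3 members differed 2-fold or more, 4.69% beside 6.83% of all genes, among them Adgrf2 at 28 and 13 counts (log2 ratio -1.28) and Gpr151 at 11 and 37 counts (1.30). All 3 were under 1 TPM in their mean. With no filter on low counts 5 members differed this much, and with a CPM of 1 or more required in both libraries 0 did. Gpr151 is known from the habenula, and the 4 habenula markers summed to 3.95 TPM in library 1 and 6.79 in library 2, with Pou4f1 at 0 and 27 counts. Of the 2 tested, Tac2 and Chrnb4, 0 passed the edgeR test, 1 had an unadjusted p under 0.05, and 1 passed with a common dispersion. With no filter on low counts Pou4f1 passed too (edgeR adjusted p = 0.0462). Their part in the result was not tested.

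**Figure D4:**
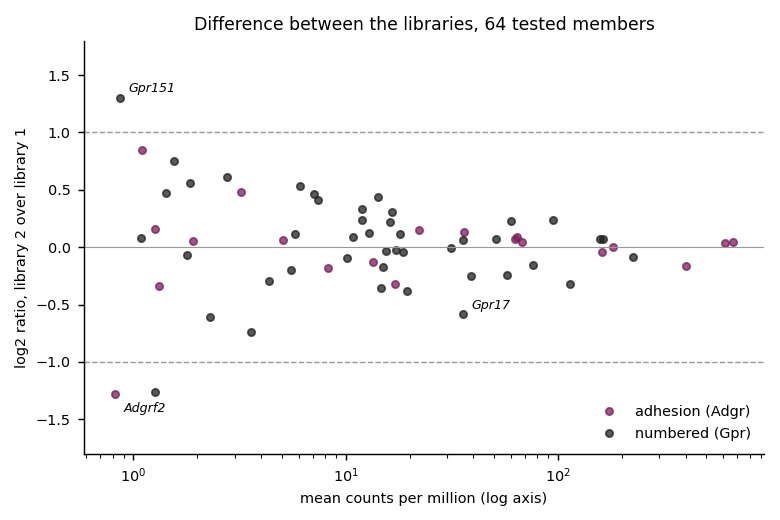
Log2 ratio of library 2 over library 1 against mean CPM for the 64 tested members, with dashed lines at 2-fold. Adgrf2, Gpr151 and 1 more member lie beyond the lines, all at the low end of the abundance axis, and none passed the test.

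Gpr17 had the smallest p-value of the members. It stood at 14.03 TPM in library 1 and 8.63 in library 2, with a log2 ratio of -0.58 and an edgeR adjusted p = 0.582 (0.496 to 1 over the alternatives). Oligodendrocyte precursor markers summed to 44.7 and 40.0 TPM and oligodendrocyte markers to 1436 and 1413, and 0 of 5 passed the edgeR test in each list, with 0 and 1 at an unadjusted p under 0.05; with a common dispersion 0 of 5 passed in each.

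Most genes in 6 chosen lists of ligands and signalling partners were also detected. The lists cover latrophilins, Adgrb members, Adgrg1 and Gpr158, with G protein alpha subunits, receptor kinases and arrestins, and not the partners of every member. Of their 41 genes, 39 were at 1 TPM or more in both libraries, beside 59.4% of all genes with a protein_coding transcript. The edgeR test called 0 of 40 tested, beside 0.806% of all tested genes. Of the 40, 0 had an unadjusted p under 0.05 and 0 passed with a common dispersion. All 7 latrophilin ligands were detected, with Tenm2 at 88.8 and 63.6 TPM and Flrt3 at 19.2 and 19.8. C1ql3, a ligand of Adgrb3, was at 66.9 and 62.2 TPM, and C1ql2 at 31.1 and 34.6. The Gpr158 partners Rgs7 and Gnb5 were at 41.7 and 41.6 and at 57.2 and 60.2 TPM. Of the G protein alpha subunits, Gnas, which activates adenylyl cyclase, was the highest at 891 and 907 TPM, followed by Gnao1 at 319 and 304. Of 10 related receptors that the name rule leaves out, 8 were detected and tested, 0 passed and 1 had an unadjusted p under 0.05. That was Celsr3, an adhesion receptor with cadherin repeats, at 38.3 and 22.1 TPM (edgeR adjusted p = 0.0652); with no scaling factor it passed (0.0482), and over the other alternatives its adjusted p was 0.0652 to 0.863. Gpr37l1, an astrocyte relative of Gpr37, stood at 90.5 and 96.5 TPM against 22.6 for Gpr37.

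Promoter sequence was compared with the members' levels. RefSeq's promoter table (GRCm38.p6, the mm10 assembly) held 69 of the 96 members, and for 61 its start lay within 500 bases of the start of the leading complete coding transcript. Some of the highest members are therefore missing: Adgrb1, Gpr162 and Gpr26 were not in it, and Adgrl3 lay beyond the 500 bases. CpG dinucleotides were counted in the 250 bases before the start. The 32 detected members had a median of 12 and the 29 others a median of 3, beside 6 over the 32841 promoters of the table. At least 10 CpG were found before 19 of the 32 detected members (59.4%), 4 of the 29 others (13.8%) and 37.8% of all promoters. The difference had exceptions on both sides: Gpr22, at 42.5 TPM, had 1 CpG, and Adgrg6, not detected, had 32. The adhesion members followed the same order, with a median of 14.5 for the 8 detected and 3.50 for the 8 others. The promoters of all genes were not split by detection, so whether this difference is particular to the members was not tested. The motif TATAAA, searched on both strands, stood in 3 of the 32 and 3 of the 29, beside 12.4% of all promoters.

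**Figure D5:**
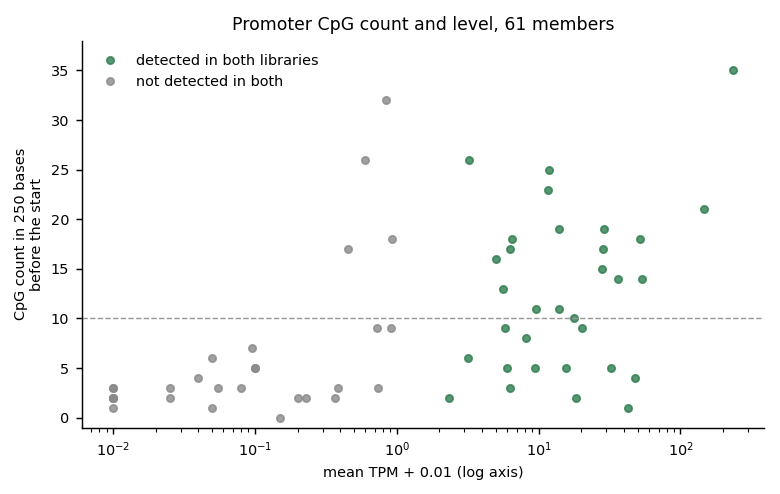
CpG count in the 250 bases before the start against mean TPM plus 0.01 (log axis) for 61 members, green where detected in both libraries and grey otherwise, with a dashed line at 10 CpG. Most grey dots lie below the line (25 of 29), and the green dots spread from 1 to 35.

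The highest member, a detected member with few CpG and a member with 0 counts are shown as examples, with CG in capitals; the window of Gpr161 lies inside the gene, before its leading transcript.
Adgrb2 (chr4:129984620-129984869, plus strand, 35 CpG): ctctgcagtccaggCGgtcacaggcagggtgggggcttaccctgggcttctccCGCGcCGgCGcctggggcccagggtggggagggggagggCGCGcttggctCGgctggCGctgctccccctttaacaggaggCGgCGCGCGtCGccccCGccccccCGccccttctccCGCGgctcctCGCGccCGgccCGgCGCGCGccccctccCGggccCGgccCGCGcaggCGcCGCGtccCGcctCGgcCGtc
Gpr161 (chr1:165302373-165302622, plus strand, 5 CpG): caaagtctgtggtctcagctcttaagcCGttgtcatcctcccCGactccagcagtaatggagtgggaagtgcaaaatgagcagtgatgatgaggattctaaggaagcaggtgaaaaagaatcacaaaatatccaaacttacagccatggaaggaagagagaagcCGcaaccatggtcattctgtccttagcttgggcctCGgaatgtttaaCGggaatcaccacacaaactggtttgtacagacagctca
Gpr33 (chr12:52028064-52028313, minus strand, 2 CpG): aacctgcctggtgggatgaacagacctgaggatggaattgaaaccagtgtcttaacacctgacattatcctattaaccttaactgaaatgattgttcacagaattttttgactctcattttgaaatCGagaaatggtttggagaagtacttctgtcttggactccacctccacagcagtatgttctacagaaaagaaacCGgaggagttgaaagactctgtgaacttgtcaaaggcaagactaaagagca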

How the data were processed

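Total RNA from 2 samples of hippocampal tissue was sequenced after ribosomal RNA reduction with a strand-keeping kit, per the labels' protocols. The deposited expected counts, TPM, percent of a gene's TPM on each transcript, and credible bounds of TPM (a signal never below 0, level not stated) come per library from mm10 and GENCODE M21, per the file headers; a second deposited transcript table gives estimated counts and TPM. Program names were not given in the sources. B6CASTF1/J reads were quantified on mm10, and the effect of the second parent's alleles was not tested. Counts were rounded and tested in edgeR 4.0.16 (R 4.3.3): CPM of 1 or more in at least 1 library, TMM scaling, an intercept-only fit with trended dispersion, deviance against chi-square, Benjamini-Hochberg over 16123 genes. The test was tested on simulated data. It compares 2 libraries, not conditions. A member's TPM lay within its bounds in both libraries for 48 of the 52 detected. Sequences were read from GENCODE M21 transcripts and RefSeq promoters with Python 3.11.15 and Biopython. Proteins were aligned globally with BLOSUM62. Members named are the 15 adhesion and 20 numbered genes with the highest mean TPM, those 2-fold or more apart, groups of 5 or fewer, the 5 detected with the lowest coding share, those with 0 counts, and partner lists. Members and lists were chosen with earlier results of these data known; examples of groups above 5 members were chosen after values were seen. The exon, protein identity, promoter and site-share analyses and their limits (10 CpG, 500 and 250 bases, 10% to 90% inclusion) were added after the data were seen. Some were run in more than 1 form. The wider motif replaced an earlier pattern and was shaped by these proteins, and TATAAA was first searched on 1 strand. Longest and leading transcripts were limited to complete coding parts after fragments had given low exon counts. Transcripts compared for skipped exons were not limited in this way. Promoter examples were exchanged after members were missing from the table or overlapped an exon. These results are descriptions. Some members' values and 1 sequence are not reported here. Overlapping genes on the opposite strand (24 members) may share reads, since whether counting used strand is not stated. Genes on the same strand overlap 13 members, among them Adgrb3 and Adgrl3, and strand cannot separate their reads.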

Additional observations from a re-analysis of the deposited data

How the results depend on the processing

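Counts of detected members (48 to 70), members mostly on protein_coding transcripts (45 to 49), shared leading transcripts (31 to 33) and resolved neighbours in groups (28 to 36) stayed within 1.5 times their reported values under every setting run, as did 0 calls between libraries in 7 alternatives of the edgeR test. The share in the 10 highest members was 64.7% by posterior mean TPM, and the adhesion share 62.1% by expected counts. Members 2-fold or more apart numbered 5 with no filter on low counts and 0 with CPM of 1 or more in both libraries. Leaving out replicate 1 or replicate 2 gave 56 and 52 detected members. Of 39 named members at 1 TPM or more, 37 lay within 1.5-fold by the second quantification, with ratios from 0.648 (Adgra3) to 1.68 (Adgrv1). Spike-in scaling shifted the median log2 ratio of all genes to -0.23 and that of members to -0.16. DESeq2 was not run, because an intercept alone gives it no difference between 2 libraries to test. No paired analysis was possible because there is 1 group. With 1 library per animal there is no replicate check within an animal, and genes under 1 CPM in both libraries were not tested.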
